A study of Homo sapiens with 6 samples.

Results

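The genes described here are those of the Wnt pathway: the secreted ligands, their receptors, the inhibitors around them, the transcription factors at the end of the pathway and the feedback genes it switches on. Members were taken from the deposited gene table by symbol, as protein-coding genes of the WNT, FZD, DKK, SFRP, RSPO and LGR families together with 15 further genes named singly. This gave 52 of the 29185 genes in the table, of which 16074 were protein-coding. The 52 members comprised 15 Wnt ligands, 3 R-spondins, 3 LGR receptors, 10 frizzled receptors, 2 LRP co-receptors, 7 secreted inhibitors, 3 genes of the destruction complex and β-catenin, 4 TCF/LEF factors and 5 negative feedback genes. WIF1, a further secreted inhibitor named in the rule, was not analysed here.

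RNA was sequenced from SKOV3, an established human ovarian cancer cell line, in 3 libraries of cells with stable silencing of KLF5 (sh-KLF5) and 3 libraries of control cells (sh-NC). KLF5 is a zinc finger transcription factor that binds GC-rich DNA. Silencing used a lentiviral short hairpin vector with puromycin selection, and the submitters' labels give the controls as wild type cells. Nothing in the labels says that the libraries of a group came from separate cultures, so the p-values measure the spread between these libraries, which may be technical. Both groups come from 1 parental line, and the sources do not say whether the cells of a group were a pool or a clone. A loss of transcript per cell cannot be told apart from a loss of cells that carry it.

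Wnt proteins are lipid-modified secreted signals that bind a frizzled receptor together with the co-receptor LRP5 or LRP6. In the canonical branch this stops the destruction complex of APC and AXIN from removing β-catenin, which then enters the nucleus and acts with TCF/LEF factors on target genes. Non-canonical ligands such as WNT5A act through frizzled receptors and ROR kinases without β-catenin. In ovarian epithelium and its tumours both branches have been linked to growth, migration and progenitor state.

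KLF5 itself (ENSG00000102554, chromosome 13, 73054976 to 73077542, plus strand, GRCh38) had normalized counts of 4371, 4425 and 4494 in sh-NC and 1745, 1440 and 1436 in sh-KLF5. A normalized count is a gene's reads divided by the library's size factor. The silenced cells thus held 34.8% of the control level, a log2 fold change of -1.53 ± 0.12 (SE, adjusted p = 2.47e-07, limma with Benjamini-Hochberg adjustment over 15803 genes). The libraries held 15852319 to 17543896 reads assigned to genes in sh-NC and 16009859 to 16871350 in sh-KLF5. The first sh-KLF5 library stood somewhat apart: the chi-square per degree of freedom of its counts was 23.5 and 30.4 against libraries 2 and 3, which differed by 10.4 from each other, while pairs of sh-NC libraries gave 4.33 to 8.41. Of the epithelial and ovarian carcinoma markers, 8 of 9 had a row, and their summed level was 253.8 to 304.1 RPKM (reads per kilobase of exon, scaled to library size) in sh-NC and 119.7 to 165.7 in sh-KLF5, with KRT8 and MUC16 called lower. KRT8 and KRT18 gave most of this sum, at 192 and 69.6 RPKM in sh-NC and 86.8 and 45.1 in sh-KLF5. KRT18 had a log2 fold change of -0.64 (adjusted p = 0.00343, limma). PAX8, EPCAM and CDH1 were detected in both groups and differed by -0.25, -0.03 and -0.15 without passing the test. ERBB2, at -0.33, and KRT19, at 1.14, did not pass it either. Fibroblast markers, 7 of 7 with a row, summed to 11.4 to 17.2 RPKM in sh-NC and 4.67 to 10.02 in sh-KLF5, with COL1A2, COL3A1, DCN and PDGFRA called lower. LUM, at a log2 difference of -0.45 (adjusted p = 0.361, limma), and COL1A1, at 0.30 (adjusted p = 0.539), did not pass the test. PDGFRB was not tested. The part of these shifts in the results below was not tested. Blood cell markers, 4 of 6 with a row, included 3 with 3 reads or fewer in every library, and their sum was 4.88 to 7.24 RPKM in sh-NC and 5.95 to 12.6 in sh-KLF5. Endothelial markers summed to at most 0.652 RPKM in any library.

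Most of the Wnt genes measured did not pass the test after KLF5 silencing, and those that did were mostly lower. NOTUM and WNT9A were lower by more than 1 on the log2 scale. NOTUM encodes a secreted inhibitor and WNT9A a ligand. A smaller fall was found for WNT7B, the receptors FZD4, FZD5 and LGR6 and the feedback gene ZNRF3, and WNT5A rose. Of the 52 members, 38 had enough reads for the test and 14 did not, the latter having at most 2 to 10 reads in their highest library. A gene was called where its adjusted p was under 0.05 and its log2 fold change was above 1 or below -1. By this rule 2 of 38 members (5.26%) were called lower, against 3.37% of all 15803 genes tested, and 0 were called higher, against 1.90%. edgeR and DESeq2 on the recovered reads also called 2 lower and 0 higher, and the highest log2 fold change of the 38 in limma was 0.46. Without the fold threshold, 7 members (18.4%) were lower, against 6.85% of all genes, and 1 (2.63%) was higher, against 6.04%. At an unadjusted p under 0.05 there were 13 members. The libraries of the groups did not overlap for 10 members lower in sh-KLF5 (26.3%, against 15.9% of all genes) and 4 higher (10.5%, against 15.4%). The median log2 fold change was -0.08 over the 38 members and 0.00 over all genes, and 21 of the 38 values were negative. NOTUM entered the test only through its sh-NC libraries, so these counts describe the members tested and not all 52.

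**Figure D1:**
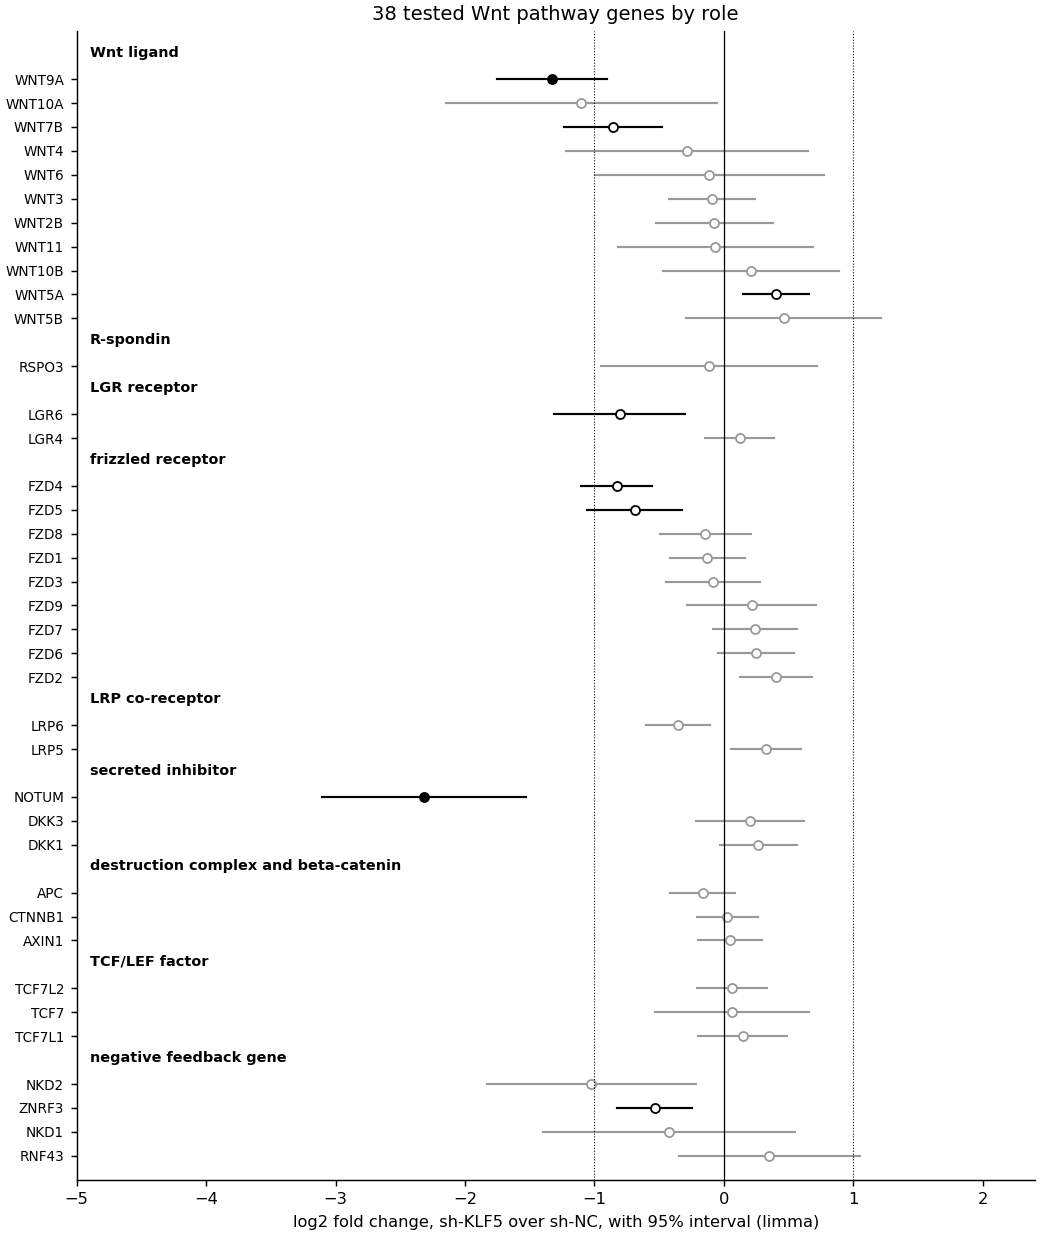
Log2 fold change (sh-KLF5 over sh-NC, horizontal axis) of each of the 38 members tested, with the 95% interval from limma, by role (filled points, called, black open points, adjusted p under 0.05 only, grey, neither). NOTUM, at -2.32, and WNT9A, at -1.33, are the called members, WNT10A and NKD2 lie beyond -1 without passing the test, and the highest point is at 0.46.

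The ligands were dominated by WNT5A, a mainly non-canonical ligand. WNT5A (ENSG00000114251, chromosome 3, 55465715 to 55490539, minus strand) had normalized counts of 6176, 5949 and 5867 in sh-NC and 9167, 7512 and 7212 in sh-KLF5. All 3 silenced libraries were above all controls, the first of them furthest. The difference was 0.40 ± 0.12 on the log2 scale (SE, adjusted p = 0.0355, limma), and the sh-KLF5 mean was 133% of the control mean. The adjusted p was 0.112, 0.152 and 0.126 without sh-NC library 1, 2 and 3 and 0.0551 without sh-KLF5 library 2, while without the first sh-KLF5 library the difference was 0.296 (adjusted p = 0.0301). With all libraries, but fitted in limma without a mean trend and robust variance, the adjusted p was 0.129. The antisense gene WNT5A-AS1 shares no exonic base with WNT5A, and its difference was 0.16 (adjusted p = 0.752).

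WNT9A and WNT7B, both ligands mainly linked to β-catenin signalling, moved the other way. WNT9A (ENSG00000143816, chromosome 1, 227918656 to 227947898, minus strand) had normalized counts of 142, 168 and 177 in sh-NC and 75.4, 59.2 and 58.2 in sh-KLF5. The groups were well separated, the highest silenced library being below the lowest control. Its mean fell from 162 ± 17.9 to 64.3 ± 9.69 (SD, n = 3 per group), or 39.6% of control, with a log2 fold change of -1.33 ± 0.20 (SE, adjusted p = 0.000245, limma). WNT7B (ENSG00000188064, chromosome 22, 45920362 to 45977129, minus strand) had 279, 234 and 290 normalized counts in sh-NC and 117, 171 and 158 in sh-KLF5. These did not overlap either, and the log2 fold change was -0.85 ± 0.18 (SE, adjusted p = 0.00371, limma). Both falls passed the test with any 1 library left out.

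Per length, WNT5A stood at 49.2 RPKM in sh-NC and WNT3, the next ligand, at 3.94. WNT3, a canonical ligand, had a log2 fold change of -0.09 (adjusted p = 0.761). WNT7B followed at 3.21 and WNT9A at 2.48 RPKM in sh-NC, and at 1.80 and 0.987 in sh-KLF5. WNT6, at 1.08 RPKM in both groups, thus came to lie beside WNT9A in sh-KLF5, within the spread of the libraries. WNT10B, WNT11, WNT2B, WNT5B, WNT4 and WNT10A were under 1 RPKM in both groups. ST7L overlaps 21.2% of the exonic bases of WNT2B on the opposite strand. The summed level of the 15 ligands was 64.1, 62.2 and 61.2 RPKM in sh-NC and 87.1, 74.9 and 66.0 in sh-KLF5. WNT5A made up 79.7%, 79.2% and 77.0% of this sum in sh-NC and 87.2%, 84.8% and 87.3% in sh-KLF5. The other ligands together gave 13.0, 13.0 and 14.1 RPKM in sh-NC and 11.2, 11.4 and 8.36 in sh-KLF5. Neither the WNT5A share nor this sum overlapped between the groups. The share contains WNT5A and the sum contains WNT7B and WNT9A, which passed a test on these same libraries. The lack of overlap is therefore no separate result.

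**Figure D2:**
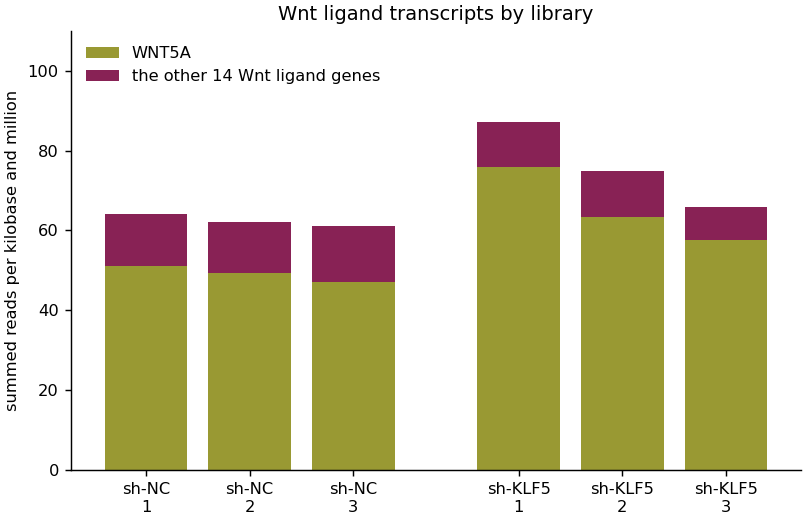
Summed level of the Wnt ligands in each library, in RPKM, split into WNT5A and the other ligands. WNT5A gives 77.0% to 79.7% of the sum in sh-NC and 84.8% to 87.3% in sh-KLF5.

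Of 11 ligands tested, 2 fell (18.2%), 1 rose (9.09%) and 8 did not pass the test. Of all genes tested, 6.85% were lower and 6.04% higher at this threshold. Several low ligands are named here after their values were seen. WNT10A had 12.1, 13.8 and 20.2 normalized counts in sh-NC and 4.08, 10.7 and 6.02 in sh-KLF5, which did not overlap, with a log2 difference of -1.10 and a 95% interval of -2.15 to -0.06 (adjusted p = 0.167, limma). WNT3A lies on chromosome 1 on the strand opposite to WNT9A, 59152 bases from it. It had 3, 3 and 4 reads in sh-NC and none in the silenced libraries, too few for a test. WNT8B, with 1, 1 and 0 reads in sh-NC and 10, 4 and 1 in sh-KLF5, was not tested either. The remaining untested ligands were WNT16 and WNT7A.

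R-spondins are secreted proteins that bind LGR receptors and protect frizzled receptors from the ubiquitin ligases ZNRF3 and RNF43. RSPO3 was the R-spondin with enough reads, at 14.9, 34.5 and 41.4 normalized counts in sh-NC and 24.5, 19.4 and 35.1 in sh-KLF5. The groups overlapped and the interval of the log2 difference ran from -0.95 to 0.72 (adjusted p = 0.89, limma). Of the receptors, LGR4 was the highest at 5.21 RPKM in sh-NC and 5.71 in sh-KLF5, and its log2 difference of 0.12 did not pass the test (95% interval -0.15 to 0.39). LGR6 (ENSG00000133067, chromosome 1, 202193901 to 202319781, plus strand) had normalized counts of 70.8, 63.1 and 77.5 in sh-NC and 39.8, 43.7 and 36.1 in sh-KLF5. No silenced library reached a control, and the log2 fold change was -0.81 ± 0.24 (SE, adjusted p = 0.0357, limma). LGR6 did not pass when any library other than the first sh-KLF5 library was left out (adjusted p from 0.0553 to 0.128). It also did not pass without a filter on low values (0.0553). LGR5, a stem cell marker, had 1, 2 and 0 reads in sh-NC and 8, 0 and 1 in sh-KLF5.

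The frizzled receptors were led by FZD6, at 22.2 RPKM in sh-NC and 26.8 in sh-KLF5, followed in both groups by FZD2 and FZD7. FZD4 was next in sh-NC at 6.03 RPKM, while in sh-KLF5 it stood at 3.43, beside FZD1 at 3.84 and FZD8 at 3.34 and within the spread of the libraries. Of 9 tested, 2 fell (22.2%, against 6.85% of all genes tested) and 7 did not pass the test. FZD4 (ENSG00000174804, chromosome 11, 86945679 to 86955391, minus strand) had normalized counts of 711, 750 and 740 in sh-NC and 407, 469 and 368 in sh-KLF5. The controls lay close together and the silenced libraries were all far below them. FZD4 fell to 56.5% of control, a log2 fold change of -0.83 ± 0.13 (SE, adjusted p = 0.000313, limma). PRSS23 overlaps 18.9% of the exonic bases of FZD4 on the opposite strand, and the strand setting of the counting is not given in the sources used here. PRSS23 itself differed by -0.05 (adjusted p = 0.826).

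FZD5 (ENSG00000163251, chromosome 2, 207762586 to 207769563, minus strand) had normalized counts of 186, 185 and 207 in sh-NC and 130, 103 and 125 in sh-KLF5. The groups were separate, and the log2 fold change was -0.69 ± 0.17 (SE, adjusted p = 0.0135, limma). The adjusted p was 0.0523 and 0.0707 without sh-NC library 2 and 3 and 0.0588 without sh-KLF5 library 2. FZD2, named after its values were seen, had 316, 324 and 348 normalized counts in sh-NC and 421, 425 and 461 in sh-KLF5. Its libraries did not overlap either, but the log2 difference of 0.40 (95% interval 0.13 to 0.68) had an adjusted p of 0.0523, and 0.022 without sh-KLF5 library 1. FZD6 had 1500, 1474 and 1481 normalized counts in sh-NC and 2235, 1496 and 1633 in sh-KLF5, where the first silenced library stood alone (log2 difference 0.25, 95% interval -0.05 to 0.54, adjusted p = 0.285). The summed level of the 10 frizzled receptors was 56.4, 56.5 and 58.8 RPKM in sh-NC and 70.8, 59.9 and 57.5 in sh-KLF5, with overlap. The log2 differences of FZD1, FZD3, FZD7, FZD8 and FZD9 lay between -0.14 and 0.24, and FZD10 was not tested.

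**Figure D3:**
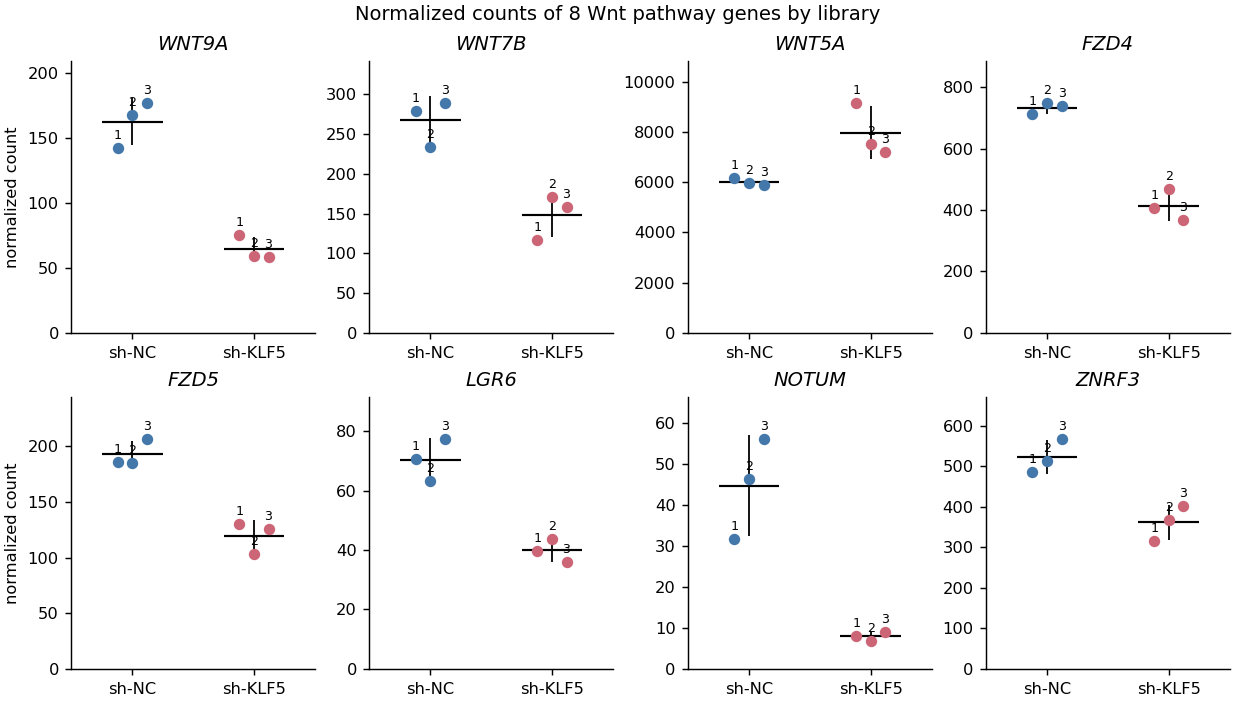
Normalized counts (linear axes from 0, 1 panel per gene) in each numbered library of the 8 members past an adjusted p of 0.05, with a horizontal line at each group's mean and a vertical bar for the SD. The 3 libraries of each group do not overlap for any of them, and WNT5A is the gene that is higher in sh-KLF5. The genes were selected by a test on these same libraries, so the lack of overlap is no separate result. Of all genes tested, 15.9% were lower and 15.4% higher without overlap.

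The co-receptors LRP5 and LRP6, which bind Wnt together with frizzled, differed in direction and did not pass the test with all libraries. LRP6 had 1881, 2059 and 1736 normalized counts in sh-NC and 1355, 1486 and 1599 in sh-KLF5, with no overlap (log2 difference -0.35, 95% interval -0.60 to -0.10, adjusted p = 0.0594, limma). LRP5 had 2060, 2153 and 2360 in sh-NC and 2302, 3155 and 2828 in sh-KLF5, with the first silenced library within the range of the controls. Its log2 difference was 0.32 (95% interval 0.05 to 0.60, adjusted p = 0.116), and it was 0.449 with adjusted p = 0.0023 without sh-KLF5 library 1. For LRP6 the adjusted p was then 0.0462, and it was 0.0369 in DESeq2. Per length LRP5 was above LRP6 in both groups, at 21.5 ± 1.15 against 11.1 ± 1.11 RPKM in sh-NC and 27.3 ± 4.55 against 8.72 ± 0.602 in sh-KLF5 (SD, n = 3 per group).

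Among the secreted inhibitors, NOTUM gave the greatest change of all members tested. NOTUM is a carboxylesterase that removes the lipid from Wnt proteins and is itself a target of the pathway. NOTUM (ENSG00000185269, chromosome 17, 81952507 to 81961840, minus strand) had normalized counts of 31.7, 46.3 and 56.2 in sh-NC and 8.15, 6.79 and 9.02 in sh-KLF5, from 34, 47 and 53 reads and 8, 7 and 9 reads. Every silenced library was far below the lowest control. The mean fell to 17.9% of control, with a log2 fold change of -2.32 ± 0.37 (SE, adjusted p = 0.000433, limma). The level was low, at 0.896 RPKM in sh-NC and 0.161 in sh-KLF5. NOTUM entered the test only through its sh-NC libraries, and it was not tested where 10 reads or more were required throughout. DKK1, which blocks LRP5 and LRP6, was the highest inhibitor at 49.96 RPKM in sh-NC and 61.1 in sh-KLF5. Its normalized counts of 1942, 1702 and 1808 in sh-NC and 2652, 1745 and 2247 in sh-KLF5 overlapped (log2 difference 0.27, 95% interval -0.03 to 0.56, adjusted p = 0.251). DKK3 did not pass the test, and DKK2, SFRP1, SFRP4 and SFRP5 were not tested.

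Inside the cell, the genes of the destruction complex and β-catenin did not pass the test, and their intervals were narrow. CTNNB1, which encodes β-catenin, had 8283, 8747 and 9074 normalized counts in sh-NC and 9398, 8309 and 8874 in sh-KLF5. The groups overlapped, and the log2 difference was 0.03 with a 95% interval of -0.21 to 0.26. APC, a scaffold of the complex, differed by -0.16 (95% interval -0.41 to 0.09) and AXIN1 by 0.04 (-0.20 to 0.29). Of these 3 genes, 0 passed an unadjusted p of 0.05, and 0 passed in edgeR or DESeq2. CTNNB1 stood at 44.2 RPKM in sh-NC and 45.3 in sh-KLF5, below WNT5A and DKK1 in both groups. These values are for transcript and say nothing of β-catenin protein.

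The TCF/LEF factors bind DNA and carry β-catenin to target genes. TCF7L2 was the highest, at 3.82 RPKM in sh-NC and 4.02 in sh-KLF5, with normalized counts of 412, 429 and 433 in sh-NC and 482, 423 and 426 in sh-KLF5 (log2 difference 0.06, 95% interval -0.21 to 0.33). TCF7L1 had 155, 163 and 153 in sh-NC and 164, 169 and 188 in sh-KLF5. Its groups just separated, but the difference of 0.14 had an interval of -0.20 to 0.49 (adjusted p = 0.62, limma). TCF7 had a wide interval, from -0.53 to 0.66. LEF1, which had 1, 0 and 2 reads in sh-NC and 5, 0 and 2 in sh-KLF5, was not tested.

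The negative feedback genes are switched on by Wnt signalling and limit it. ZNRF3 (ENSG00000183579, chromosome 22, 28883592 to 29057487, plus strand), a ubiquitin ligase that removes frizzled receptors from the cell surface, was the highest at 4.55 RPKM in sh-NC. It had normalized counts of 487, 514 and 569 in sh-NC and 316, 367 and 403 in sh-KLF5. The groups did not overlap, and ZNRF3 fell to 69.2% of control (log2 fold change -0.53 ± 0.14, SE, adjusted p = 0.0156, limma). The adjusted p was 0.067 and 0.0887 without sh-NC library 2 and 3 and 0.0695 without a mean trend and robust variance. NKD2, an inhibitor of Dishevelled, had 22.3, 22.7 and 26.5 normalized counts in sh-NC and 12.2, 8.73 and 13.0 in sh-KLF5. These were separate, yet the log2 difference of -1.02 had an adjusted p of 0.0923 (95% interval -1.83 to -0.22). It was called lower when limma was run without trend and robust variance (adjusted p = 0.0173). NKD1 had 24.2, 12.8 and 9.55 normalized counts in sh-NC and 10.2, 8.73 and 13.0 in sh-KLF5, with overlap. RNF43, the partner of ZNRF3, had 20.5, 21.7 and 18.0 in sh-NC and 26.5, 22.3 and 29.1 in sh-KLF5, with an interval of -0.35 to 1.05, and is uncertain because other genes overlap 73.9% of its exonic bases. AXIN2, a widely used readout of canonical signalling, had only 8, 9 and 5 reads in sh-NC and 6, 10 and 5 in sh-KLF5. AC004805.1 overlaps 25.2% of the exonic bases of AXIN2 on the same strand, and the effect of this on its count was not tested. AXIN2 did not enter the test, and a difference was not detectable at this depth.

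**Figure D4:**
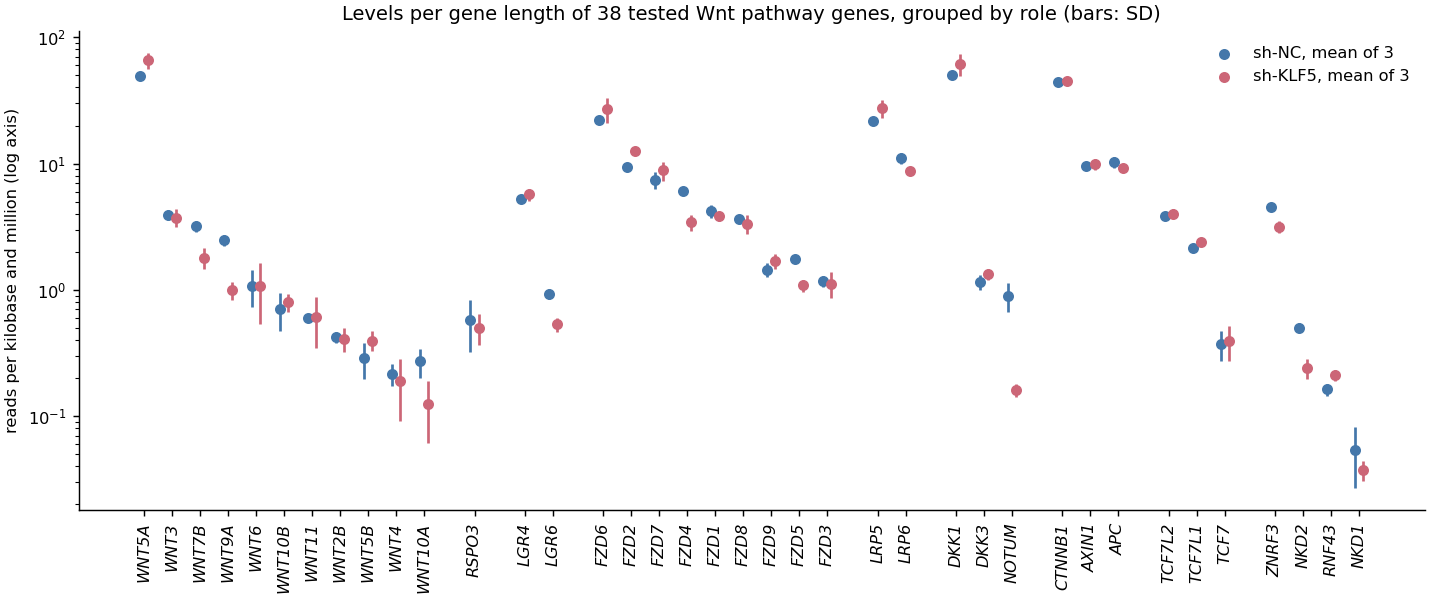
Level of each tested member per length (RPKM, log axis) in sh-NC and sh-KLF5, as the mean of 3 libraries with SD bars, by role. WNT5A, DKK1 and CTNNB1 are the highest members in sh-NC, at 49.2, 49.96 and 44.2.

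The promoters of members past an adjusted p of 0.05 are shown because KLF factors bind GC-rich boxes, although no binding was measured here. RefSeq entries (GRCh38.p14, 250 bases before to 50 after the start site) were matched by symbol for 35 of the 52 members, and NOTUM, WNT7B and ZNRF3 had none. The windows are WNT9A at chr1:227947883-227948182 (minus strand), LGR6 at chr1:202193549-202193848 (plus), WNT5A at chr3:55487257-55487556 (minus), FZD4 at chr11:86955346-86955645 (minus) and FZD5 at chr2:207769857-207770156 (minus). The RefSeq start of WNT5A lies 3233 bases from the start of the gene in the table. Each is given 5′ to 3′ on the strand of the gene, with capitals marking the letters CCNCNCCC on either strand.
WNT9A: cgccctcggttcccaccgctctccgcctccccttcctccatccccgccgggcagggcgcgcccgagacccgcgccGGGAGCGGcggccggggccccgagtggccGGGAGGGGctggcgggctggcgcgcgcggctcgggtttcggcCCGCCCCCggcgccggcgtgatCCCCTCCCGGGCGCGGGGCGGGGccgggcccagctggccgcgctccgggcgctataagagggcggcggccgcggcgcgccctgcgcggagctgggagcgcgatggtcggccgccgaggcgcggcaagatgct
FZD4: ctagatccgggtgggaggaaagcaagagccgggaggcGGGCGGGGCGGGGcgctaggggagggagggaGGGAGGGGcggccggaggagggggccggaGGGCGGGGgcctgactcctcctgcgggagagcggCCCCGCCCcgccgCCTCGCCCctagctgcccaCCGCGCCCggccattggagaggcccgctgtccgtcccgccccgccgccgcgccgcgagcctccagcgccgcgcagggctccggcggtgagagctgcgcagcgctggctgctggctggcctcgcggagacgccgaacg
FZD5: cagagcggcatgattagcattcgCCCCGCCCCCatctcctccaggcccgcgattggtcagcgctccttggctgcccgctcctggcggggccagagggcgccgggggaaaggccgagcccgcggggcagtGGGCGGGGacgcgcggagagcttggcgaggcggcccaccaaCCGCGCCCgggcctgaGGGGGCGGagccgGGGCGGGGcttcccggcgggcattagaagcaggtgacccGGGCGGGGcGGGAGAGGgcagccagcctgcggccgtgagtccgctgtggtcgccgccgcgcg
LGR6: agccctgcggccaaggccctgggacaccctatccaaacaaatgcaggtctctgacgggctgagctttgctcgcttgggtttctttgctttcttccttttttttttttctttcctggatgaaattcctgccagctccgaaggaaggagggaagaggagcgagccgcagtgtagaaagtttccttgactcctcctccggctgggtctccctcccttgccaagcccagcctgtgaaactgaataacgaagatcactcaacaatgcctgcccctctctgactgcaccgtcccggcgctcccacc
WNT5A: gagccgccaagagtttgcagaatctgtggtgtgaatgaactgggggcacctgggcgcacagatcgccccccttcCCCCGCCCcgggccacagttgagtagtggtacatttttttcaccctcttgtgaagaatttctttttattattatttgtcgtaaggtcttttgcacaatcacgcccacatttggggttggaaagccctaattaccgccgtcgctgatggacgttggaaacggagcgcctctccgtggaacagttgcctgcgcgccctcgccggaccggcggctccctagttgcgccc

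These GC boxes may overlap one another. They numbered 6 in WNT9A, 7 in FZD4, 8 in FZD5 and 1 in WNT5A, and LGR6 had 0. The letters were present in 19727 of 35116 promoters in the table (56.2%), in 29 of 35 members (82.9%) and in 3 of 4 members that were lower. The GC content of the windows was 83.0% in WNT9A, 79.7% in FZD4 and 77.0% in FZD5, against 55.3% in LGR6 and 56.3% in WNT5A. The TCF/LEF letters CTTTGAT, searched on both strands, were in 2.62% of all promoters and in 0 of 35 members, and CTTTGAA in 4.43% and in 1 of 35. The members were counted with 1 promoter per symbol, while the 35116 promoters were not reduced in this way. They were also not matched to the members in GC content or level, so these shares compare unlike sets. A match is a run of letters and not a measured site.

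Other genes of the Wnt pathway were taken from a list of 113, of which 102 had a row and 89 were tested. In this list 6 genes (6.74%) were called lower and 7 (7.87%) higher, against 3.37% and 1.90% of all genes tested. CXXC4, FGF18, NFATC4 and PRICKLE1, 4 of the 6 called lower, had under 10 reads in every sh-KLF5 library and entered the test only through sh-NC, so the count describes the genes tested. With 10 reads or more required throughout, 0 of these 6 were tested, and ID2 was the 1 gene called lower. Of the 89, 65 did not pass an adjusted p of 0.05, and the median log2 fold change was 0.00. ID2, PORCN, WLS, MYC, NLK, ROR2, RYK, CCND1, CD44, BCL9 and TLE4 are named after their values were seen. The Wnt secretion genes PORCN and WLS differed by -0.06 and 0.07 without passing the test. At an adjusted p under 0.05, 6.85% of all genes tested were lower and 6.04% higher. Of 23 cytoplasmic relay genes 1 was lower and 2 were higher, and of 11 other receptors 0 and 1. Of 15 nuclear partners of β-catenin 2 were lower, BCL9 (-0.69) and TLE4 (-0.85), and 0 higher. BCL9 did not pass in 1 alternative fit and TLE4 in 4. Of 4 other inhibitors 1 was lower and 1 higher. The target and polarity lists, with the highest shares in 1 direction, follow.

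Of 18 genes tested that are known targets of the pathway in other tissues, 7 (38.9%) were higher and 2 (11.1%) lower at an adjusted p under 0.05, against 6.04% and 6.85% of all genes tested. Like the other lists, this list was chosen with earlier results of these data known. JUN, a subunit of the AP-1 factor, had 411, 317 and 432 normalized counts in sh-NC and 946, 1035 and 1048 in sh-KLF5 (log2 fold change 1.39 ± 0.14, SE, adjusted p = 3.33e-06, limma). FOSL1, another AP-1 subunit, rose by 1.09, the Notch ligand JAG1 by 1.06, the ephrin receptor EPHB2 by 1.04 and the zinc finger repressor SNAI2 by 1.04 on the log2 scale. All 4 stayed past the adjusted threshold with any 1 library left out, but their rise then came as low as 0.932, 0.98, 0.855 and 0.969, under the fold threshold. FOSL1, JAG1 and SNAI2 were not called without sh-NC library 2, EPHB2 without sh-NC library 1 or sh-KLF5 library 3, FOSL1 without sh-KLF5 library 2 and SNAI2 without sh-KLF5 library 1. CCND1, which encodes cyclin D1, rose by 0.80 (1629, 1378 and 1511 against 2619, 2515 and 2714 normalized counts), and the adhesion receptor CD44 by 0.61. FGF18 and TCF4 fell. The growth factor FGF18 had 79, 40 and 44 reads in sh-NC and 5, 1 and 7 in sh-KLF5, and entered the test only through sh-NC. TCF4, a helix-loop-helix factor, had 122, 75.9 and 55.2 normalized counts in sh-NC and 24.5, 6.79 and 14.04 in sh-KLF5. MYC, also a target, differed by 0.32 (adjusted p = 0.241). Most of these targets respond to other pathways too.

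Of 16 genes of planar cell polarity and calcium signalling, the non-canonical branches, 6 (37.5%) were lower and 1 (6.25%) higher at an adjusted p under 0.05, against 6.85% and 6.04% of all genes tested. NFATC4 and PRICKLE1, both among those lower, entered the test only through sh-NC, so these shares describe the genes tested. VANGL2, a core polarity membrane protein, had 49.3, 50.3 and 50.9 normalized counts in sh-NC and 12.2, 21.3 and 7.02 in sh-KLF5 (log2 fold change -1.94 ± 0.38, SE, adjusted p = 0.00217, limma). NFATC4, a calcium-responsive transcription factor, had 31, 26 and 29 reads in sh-NC and 0, 2 and 2 in sh-KLF5. PRICKLE1, a cytoplasmic polarity protein, had 15, 26 and 13 reads and 4, 1 and 3 reads, and its call was lost without the second sh-NC library (adjusted p = 0.105). The kinase NLK was the gene of this list that rose, by 0.53. It did not pass in 3 of 16 alternative fits, those without sh-NC library 2 (adjusted p = 0.0523) and 3 (0.0613) included. Of the genes that fell, INVS passed narrowly (adjusted p = 0.0494) and did not pass in 12 of 16 alternative fits, edgeR (0.0505) and both other scalings included. NFATC2 did not pass without sh-NC library 2 (0.0595). INVS and NFATC2 are also named after their values were seen.

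ROR1, a receptor for WNT5A, rose from 41.0, 24.6 and 32.9 normalized counts in sh-NC to 77.5, 81.5 and 84.2 in sh-KLF5 (log2 fold change 1.31 ± 0.26, SE, adjusted p = 0.0024, limma). The related receptors ROR2 and RYK differed by 0.30 and 0.01 without passing the test. CXXC4 and DACT1, which both bind Dishevelled, moved in opposite directions. CXXC4 had 161, 121 and 94 reads in sh-NC and 1, 2 and 3 in sh-KLF5, and its fold depends on the pseudocount. DACT1 rose from 20.5, 17.7 and 27.6 normalized counts to 80.5, 59.2 and 55.1 (log2 fold change 1.53 ± 0.29, SE, adjusted p = 0.00189).

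**Figure D5:**
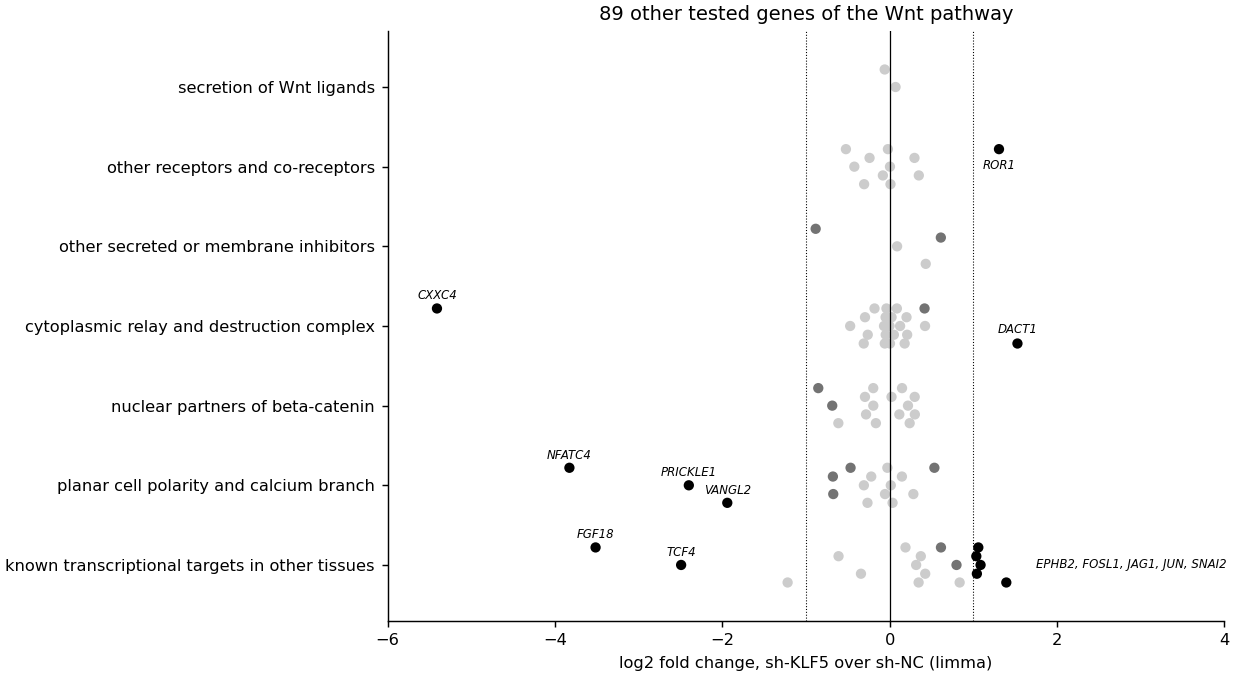
Log2 fold change (sh-KLF5 over sh-NC) of the other Wnt pathway genes tested, by list (black and named, called, dark grey, adjusted p under 0.05 only, light grey, neither). Among targets, 7 of 18 genes are higher and 2 lower at an adjusted p under 0.05, and among planar polarity and calcium genes 1 is higher and 6 are lower. FGF18 among the targets and NFATC4 and PRICKLE1 among the polarity and calcium genes entered the test only through sh-NC.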

How the data were processed

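Poly(A) RNA of 3 sh-NC and 3 sh-KLF5 SKOV3 libraries was sequenced by the authors. According to the submitters' processing notes, tools included HISAT2 2.0.5, featureCounts 1.5.0-p3 and DESeq2 1.20.0, with build hg38. The authors deposited 1 table of normalized counts, a signal equal to reads divided by median-of-ratios size factors. Its group means, fold changes and p-values are the authors' own comparison and were not used. Whole reads were recovered from the steps of each column (100% whole within 0.01).

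Genes were filtered with edgeR's filterByExpr (minimum count 10), and log2(normalized count + 1) was fitted with limma 3.58.1 (trend, robust) in R 4.3.3, with Benjamini-Hochberg adjustment over 15803 genes. Fold changes are on this scale, which understates changes of low genes. RPKM was computed from the recovered reads and the exonic length in the table. edgeR 4.0.16 and DESeq2 1.42.0 on recovered reads, other scalings, pseudocounts, filters, the replicate block and leaving out each library were alternatives. The exact permutation test cannot go below p = 0.1 with 3 libraries against 3. A count of 3 reads corresponded to 0.171 to 0.189 CPM, and such floors cover counting error only. Scripts were tested on simulated data.

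Named genes were KLF5, all members with adjusted p under 0.05, the highest member of each role, a set list of core components, and called genes of the other pathway list. Members and lists were chosen with earlier results of these data known. Same-numbered libraries did not deviate together (r = 0.059, 0.033 and 0.050), so the numbers were not used as pairs.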

Additional observations from a re-analysis of the deposited data

How the results depend on the processing

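NOTUM, WNT9A, WNT7B and FZD4 stayed lower and past the adjusted threshold in every fit that tested them. Under the stricter filter (10 reads or more throughout) NOTUM was not tested, leaving 1 member called lower, and 1 other pathway gene was called lower, ID2, which is none of the 6 in the report. Members higher at an adjusted p under 0.05 numbered 2 in DESeq2, with TMM factors, with library size only and with the replicate block, and 0 in limma without trend and robust variance. With the replicate block 8 members were lower, and the block moved no other count of calls by over 1.5 times. Leaving out 1 library gave 0 to 3 members higher (3, FZD2, LRP5 and WNT5A, without the first sh-KLF5 library, and 0 without any sh-NC library or the second sh-KLF5 library) and 4 to 8 lower (4 without sh-NC library 2 or 3). LRP6 passed in DESeq2 (adjusted p = 0.0369) and with the replicate block (0.0358), and FZD2 in DESeq2 (0.0442). Signs turned for 12 members, all short of the threshold, when 1 library was left out: log2 differences ran from -0.012 to 0.114 for AXIN1, -0.018 to 0.071 for CTNNB1, -0.252 to 0.049 for FZD3, -0.255 to 0.003 for FZD8, -0.546 to 0.162 for RSPO3, -0.163 to 0.302 for TCF7, -0.053 to 0.414 for WNT10B, -0.368 to 0.128 for WNT11, -0.22 to 0.025 for WNT2B, -0.207 to 0.006 for WNT3, -0.628 to 0.027 for WNT4 and -0.421 to 0.383 for WNT6. WNT11 was also 0.004 in edgeR and 0.001 in DESeq2. The stricter filter removed NOTUM from the test by rule. A fit without 1 library also rests on fewer libraries, and the causes of the other shifts were not tested. TMM and library size scaling moved the median of all genes by less than 0.1. The 14 untested members had too few reads at this depth for the filter.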
